A study of Homo sapiens with 4 samples.

Results

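Microtubules are built from pairs of α- and β-tubulin, and each subunit is encoded by several genes that are called isotypes. The genes described here are 4 α-tubulin genes (TUBA1A, TUBA1B, TUBA1C and TUBA4A), 5 β-tubulin genes (TUBB, TUBB2A, TUBB3, TUBB4B and TUBB6) and ATAT1, which encodes the α-tubulin acetyltransferase. They were chosen by name, as the α-tubulins on which the deacetylase HDAC6 acts, the β-tubulins that pair with them, and the counterpart enzyme of HDAC6. They are 10 of the 58226 gene IDs in the files. Each of the 10 names matched 1 ID. Of the 10 genes, 8 had counts in all 4 libraries, and TUBB and ATAT1 were listed at 0 in all 4.

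RNA-seq was performed on U87MG, a human glioblastoma cell line, and on R-U87MG, its derivative resistant to the alkylating drug temozolomide (TMZ). R-U87MG cells were kept in 50 µM TMZ and received either a non-targeting control siRNA pool (si-NC) or siRNA against HDAC6 (si-HDAC6). U87MG cells received si-NC or siRNA against the long non-coding RNA LINC00461 (si-LINC00461), and no TMZ is given for them. The paper lists several target sequences for si-NC and for si-HDAC6, but 1 for si-LINC00461. The RNA was taken 72 h after transfection, and each of the 4 conditions was 1 library, so no difference below has a replicate check and no p-value is given. Whether R-U87MG is 1 clone or a mixed population is not given in the sources used here.

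HDAC6 removes an acetyl group from a lysine of α-tubulin that faces the inside of the microtubule, and ATAT1 adds it. Most α-tubulins end in a tyrosine that the vasohibins VASH1 and VASH2, with their partner SVBP, cut off and that the tubulin tyrosine ligase TTL puts back. Cells adjust the amount of tubulin mRNA to that of free tubulin: TTC5 binds the first residues of a nascent tubulin chain and, through SCAPER and the CCR4-NOT deadenylase, leads to decay of the mRNA being translated. These marks are on protein. The libraries measure RNA, so neither acetylation nor tyrosination was measured here.

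The stretch of coding sequence that holds the acetylated lysine is shown because it is the site on which HDAC6 and ATAT1 act. The sequences are the reference sequences of GENCODE 29 transcripts on GRCh38, 5′ to 3′, and the capitals mark codon 40, counted from the start codon. AAG is a lysine codon. TUBA1A lies on the minus strand at chr12:49186702-49186731, TUBA1B on the minus strand at chr12:49129591-49129620, TUBA1C on the plus strand at chr12:49269567-49269596 and TUBA4A on the minus strand at chr2:219252099-219252128, each in coding exon 2 of 4 exons.
TUBA1A: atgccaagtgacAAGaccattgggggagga
TUBA1B: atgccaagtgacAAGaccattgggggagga
TUBA1C: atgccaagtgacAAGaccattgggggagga
TUBA4A: atgcccagtgacAAGaccattggtggaggg
The 3 TUBA1 genes had identical bases in this window, and TUBA4A differed from them in the bases around an identical codon 40. All 4 α-tubulin genes therefore encode the lysine.

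The first 4 codons are shown because they encode the residues that TTC5 reads, with codon 4 in capitals. In the α-tubulin genes an intron interrupts them.
TUBA1A: atgcgtgagTGC
TUBA1B: atgcgtgagTGC
TUBA1C: atgcgtgagTGC
TUBA4A: atgcgtgaaTGC
TUBB: atgagggaaATC
TUBB2A: atgcgcgagATC
TUBB3: atgagggagATC
TUBB4B: atgagggaaATC
TUBB6: atgagggagATC
Codon 4 was TGC, a cysteine codon, in the 4 α-tubulin genes and ATC, an isoleucine codon, in the 5 β-tubulin genes.

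The last codons before the stop codon are shown for 7 of the tubulin genes because the tail they encode is where isotypes differ most and where the terminal tyrosine stands. The capitals mark the last codon. The windows lie at chr12:49273198-49273224 (plus strand) for TUBA1C, chr2:219250355-219250381 (minus strand) for TUBA4A, chr6:30724368-30724394 (plus) for TUBB, chr6:3153866-3153892 (minus) for TUBB2A, chr16:89935775-89935801 (plus) for TUBB3, chr9:137243527-137243553 (plus) for TUBB4B and chr18:12326101-12326127 (plus) for TUBB6, each in coding exon 4.
TUBA1C: gacggagaggatgagggtgaagagTAT
TUBA4A: tatgaggacgaggatgagggagaaGAA
TUBB: ttcggtgaggaggccgaagaggagGCC
TUBB2A: gaggaggaggagggcgaggacgagGCT
TUBB3: gaggagtcggaggcccagggccccAAG
TUBB4B: gaggaggaggctgaggaggaggtgGCC
TUBB6: gaggatgaggaagaggagatcgatGGA
TUBA1C ended in TAT, a tyrosine codon, and TUBA4A ended in GAA, a glutamate codon, so TUBA4A encodes no terminal tyrosine for the vasohibins to remove. TUBB3 was the β-tubulin gene whose reading frame ended in a lysine codon, AAG.

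Over the whole coding sequence TUBA1A and TUBA1B were 97.2% identical, TUBA1A and TUBA1C 95.9%, and TUBA1B and TUBA1C 96.8%, whereas TUBA4A was 84.4% to 85.7% identical to them. The β-tubulin genes were 80.9% to 87.8% identical to each other, with TUBB and TUBB6 the least alike and TUBB2A and TUBB3 the most. An α- and a β-tubulin gene were 52.7% to 55.2% identical. The coding sequences held between 444 codons (TUBB) and 451 codons (TUBA1A and TUBA1B), and that of ATAT1 held 333 codons in 11 exons.

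The libraries held 12596072 to 20027866 counts, and 95% intervals below are exact binomial (Clopper-Pearson) intervals that cover counting error of these libraries only. HDAC6 had 296 counts in R-U87MG si-NC, 67 in R-U87MG si-HDAC6, 649 in U87MG si-NC and 540 in U87MG si-LINC00461. It was thus 3.35-fold lower with si-HDAC6 than with si-NC. LINC00461 had 154, 80, 363 and 73 counts in the same order, and its log2 ratio of si-LINC00461 to si-NC in U87MG was −2.12 (95% interval −2.51 to −1.76). VIM and CD44, which mesenchymal glioblastoma cells express, had at least 1604 CPM (counts per 1000000 counts of the library) in each library. GFAP, SOX2 and S100B, by contrast, had at most 13 counts. OLIG2 had 92 and 115 counts in R-U87MG si-NC and si-HDAC6, and 15 and 18 in U87MG si-NC and si-LINC00461. By CPM, OLIG2 was thus higher in each R-U87MG library than in either U87MG library. NES had 623, 441, 854 and 765 counts in the same order of libraries. Markers of other cell types reached a mean CPM of 1 or more for 4 of 8 neuronal, 1 of 3 oligodendrocyte, 1 of 3 immune and 2 of 3 endothelial genes. The immune gene was CD68, at 424 to 734 CPM, while PTPRC and AIF1 had at most 3 counts. PECAM1, an endothelial gene, had 433 counts in U87MG si-LINC00461 and at most 52 in the other libraries. Fewer cells of a type and less RNA per cell cannot be told apart in such libraries.

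The 8 tubulin genes with counts together held 92378 counts in R-U87MG si-NC, 67315 in R-U87MG si-HDAC6, 94701 in U87MG si-NC and 43730 in U87MG si-LINC00461. These were 0.555%, 0.534%, 0.473% and 0.246% of the counts of each library. The share was lowest in U87MG si-LINC00461.

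TUBA1B (ENSG00000123416; chromosome 12, 49127782 to 49131397) is a ubiquitous α-tubulin gene and had the most counts of the 10 genes in every library. It had 2334 CPM in R-U87MG si-NC, 2191 in R-U87MG si-HDAC6, 1511 in U87MG si-NC and 625 in U87MG si-LINC00461. It was therefore higher in the R-U87MG pair than in either U87MG library, and U87MG si-LINC00461 was the lowest.

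TUBA1C (ENSG00000167553; chromosome 12, 49188736 to 49274603), another widely expressed α-tubulin gene, had 697 CPM in R-U87MG si-NC, 636 in R-U87MG si-HDAC6, 334 in U87MG si-NC and 216 in U87MG si-LINC00461, in the same order of libraries as TUBA1B. TUBA1A (ENSG00000167552; chromosome 12, 49184796 to 49189324), the main α-tubulin gene of developing neurons, had 234, 217, 454 and 271 CPM in that order of libraries. TUBA4A (ENSG00000127824; chromosome 2, 219249711 to 219278170) had 388, 393, 584 and 380 CPM. For TUBA1A and TUBA4A the highest library was thus U87MG si-NC, not an R-U87MG library.

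TUBB4B (ENSG00000188229; chromosome 9, 137241213 to 137243707), a widely expressed β-tubulin gene, had 900 CPM in R-U87MG si-NC, 892 in R-U87MG si-HDAC6, 731 in U87MG si-NC and 322 in U87MG si-LINC00461. TUBB6 (ENSG00000176014; chromosome 18, 12307669 to 12344320) had 754, 740, 886 and 418 CPM. Both were lowest in U87MG si-LINC00461, and TUBB6 was highest in U87MG si-NC.

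TUBB3 (ENSG00000258947; chromosome 16, 89921392 to 89938761), the β-tubulin gene used as a neuronal marker and also expressed in tumor cells, had 213 CPM in R-U87MG si-NC, 238 in R-U87MG si-HDAC6, 181 in U87MG si-NC and 204 in U87MG si-LINC00461. The lowest value was in U87MG si-NC, and in both pairs the library with the targeting siRNA was the higher one. TUBB2A (ENSG00000137267; chromosome 6, 3153669 to 3157526), which is abundant in brain, had the fewest counts of the 8, with 31.8, 37.3, 48.6 and 25.0 CPM in the same order of libraries.

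**Figure D1:**
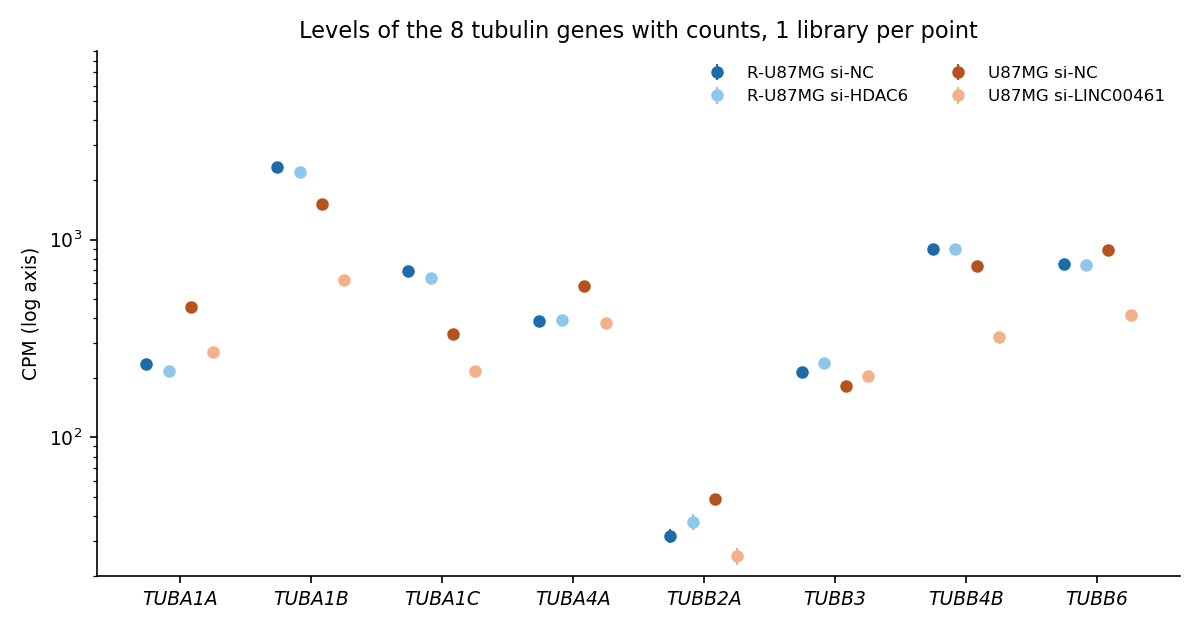
CPM (log axis) of the 8 tubulin genes with counts, with 1 point for each of the 4 libraries and bars for the 95% counting interval. By CPM, which scale by library totals only, U87MG si-LINC00461 was the lowest library for TUBA1B, TUBA1C, TUBA4A, TUBB2A, TUBB4B and TUBB6. For TUBA4A its interval overlapped those of both R-U87MG libraries. TUBB3 differed least between libraries.

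To compare genes with each other, CPM were divided by the length of the union of a gene's annotated exons in kilobases, which gives a length-scaled level. In R-U87MG si-NC the order of length-scaled levels was TUBA1B (653), TUBB4B (427), TUBB6 (183), TUBA1C (150), TUBA4A (95.05), TUBA1A (68.5), TUBB3 (48.1) and TUBB2A (18.4), and the order was the same in R-U87MG si-HDAC6. U87MG si-NC began with the same 3 genes (423, 346 and 215) and then had TUBA4A (143) and TUBA1A (133) before TUBA1C (72.1). In U87MG si-LINC00461 TUBA1C (46.6) and TUBB3 (46.0) had length-scaled levels whose counting intervals overlapped.

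By these length-scaled levels TUBA1B made up 67.5% of the α-tubulin sum in R-U87MG si-NC, 67.4% in R-U87MG si-HDAC6, 54.9% in U87MG si-NC and 44.4% in U87MG si-LINC00461. The share of TUBA1A was 7.08%, 6.96%, 17.2% and 20.1% in that order of libraries. That of TUBA4A, the gene with no encoded terminal tyrosine, was 9.83%, 10.6%, 18.6% and 23.6%. TUBA1B thus led in every library, and its share was smaller in U87MG than in R-U87MG and smallest in U87MG si-LINC00461.

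Among the β-tubulin genes with counts, TUBB4B held 63.1%, 62.4%, 54.9% and 48.5% of the sum, and TUBB6 held 27.1%, 26.5%, 34.1% and 32.3%. The share of TUBB3 was 7.11%, 7.93%, 6.47% and 14.6%, and that of TUBB2A was between 2.72% and 4.61%. Which of TUBB4B and TUBB6 came out higher depended on the length used: over the median length of the coding transcripts TUBB6 held 57.4% and TUBB4B 27.5% in R-U87MG si-NC. The sums lack TUBB, which is listed at 0.

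**Figure D2:**
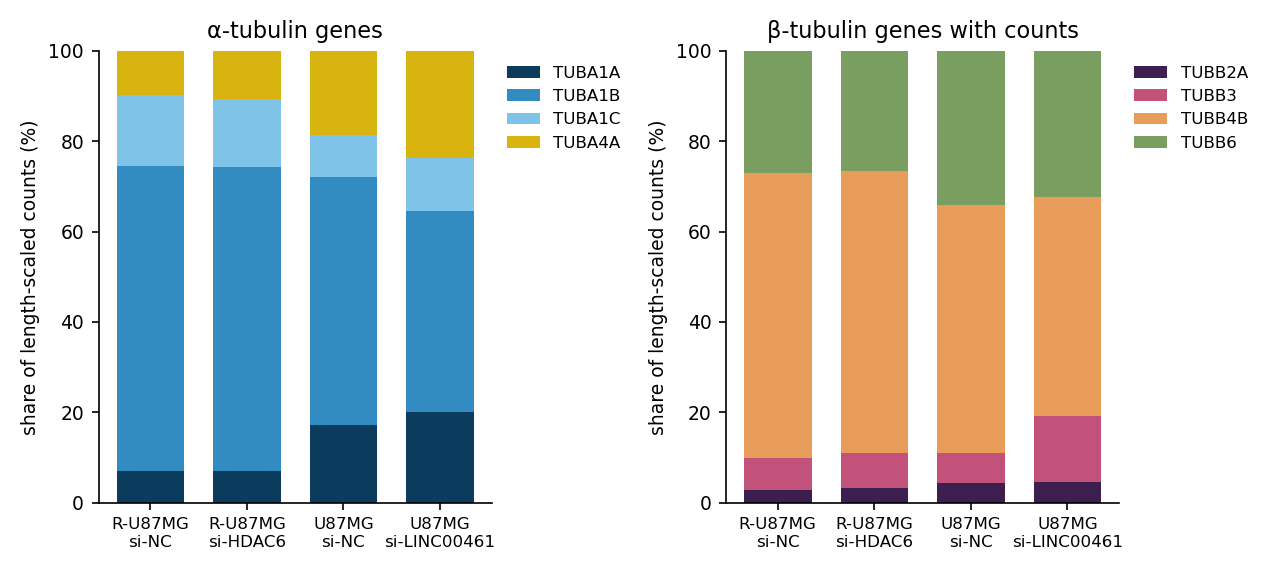
Share (%) of each gene in the summed length-scaled levels of the α-tubulin genes (left) and of the β-tubulin genes with counts (right) in each library, stacked to 100. TUBA1B was 67.5% of the α-tubulin sum in R-U87MG si-NC and 44.4% in U87MG si-LINC00461, and TUBB3 made up 14.6% of the β-tubulin sum in that library against 6.47% to 7.93% in the others.

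The first comparison was between si-HDAC6 and si-NC in R-U87MG, and describes the RNA of α- and β-tubulin genes where HDAC6 RNA was lowered. Genes were compared where their CPM averaged 1 or more over the pair of libraries, log2 ratios were taken after TMM normalization, and a gene was called at 2-fold. None of the 8 tubulin genes was called (0 of 8). Over the whole set of 13120 genes, 0.747% were called as lower and 0.694% as higher, which is 1.44% together. Their median log2 ratio was −0.03, and the range was −0.14 to 0.22.

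The α-tubulin genes had log2 ratios of −0.14 (95% interval −0.18 to −0.10) for TUBA1C, −0.12 (−0.19 to −0.05) for TUBA1A, −0.10 (−0.12 to −0.08) for TUBA1B and 0.01 (−0.04 to 0.06) for TUBA4A. The first 3 intervals were below 0, and the change was at most 1.10-fold. The β-tubulin genes had log2 ratios of −0.02 (TUBB4B), −0.04 (TUBB6), 0.15 (0.08 to 0.22) for TUBB3 and 0.22 (0.04 to 0.40) for TUBB2A. Summed α-tubulin counts had a log2 ratio of −0.10, and summed β-tubulin counts one of −0.004.

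These ratios lay within the spread of other genes in the same pair of libraries, of which the central 90% had log2 ratios of −0.42 to 0.44. TUBA1C, the lowest of the tubulin genes, was at percentile 23.7 of all genes compared, and TUBB2A, the highest, at percentile 85.1. HDAC6 itself had a log2 ratio of −1.74 (−2.16 to −1.36). With 1 library each, differences of the size seen for TUBB2A and TUBB3 cannot be told from variation between cultures.

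The second comparison was between si-LINC00461 and si-NC in U87MG. Here 3 of the 8 tubulin genes were at least 2-fold lower, against 8.17% of the 13210 genes compared. TUBA1B was 2.39-fold lower, TUBB4B 2.25-fold and TUBB6 2.10-fold, and none was at least 2-fold higher, against 5.42% of all genes, or 13.6% in either direction. These 3 genes had the highest length-scaled levels (exon union) of the 8 in U87MG si-NC.

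The log2 ratio was −1.26 (95% interval −1.29 to −1.23) for TUBA1B, −1.17 (−1.21 to −1.13) for TUBB4B and −1.07 (−1.11 to −1.03) for TUBB6. All 3 intervals lay beyond 2-fold. TUBB2A was below the threshold at −0.94 (−1.11 to −0.78). TUBA1A had a log2 ratio of −0.73, and TUBA1C and TUBA4A each had one of −0.61. Of the 8 genes 7 were below 0, and 50.2% of all genes compared were.

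TUBB3 was the exception. It had 3622 counts in U87MG si-NC and 3624 in U87MG si-LINC00461, for a log2 ratio of 0.19 (0.12 to 0.25), at percentile 64.6 of all genes compared. Its share of the β-tubulin sum was accordingly higher in that library. The median log2 ratio of the 8 genes was −0.83, and that of all genes −0.003. The central 90% of all genes had log2 ratios of −1.33 to 1.04, so all 8 tubulin genes were within it.

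Summed α-tubulin and summed β-tubulin counts had nearly the same ratio in this pair of libraries, with log2 ratios of −0.93 (−0.96 to −0.91) and −0.92 (−0.94 to −0.89). The ratio of length-scaled α- to β-tubulin sums was 1.22 in U87MG si-NC and 1.25 in U87MG si-LINC00461, beside 1.43 and 1.34 in R-U87MG si-NC and si-HDAC6. The order of the U87MG libraries depended on the length used: over the longest coding transcripts the ratio was 1.51 in U87MG si-NC and 1.45 in U87MG si-LINC00461. These ratios leave out TUBB.

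Division markers, among them MKI67, CCNA2 and CDK1, moved with this result. All 9 were at least 2-fold lower with si-LINC00461, against 8.17% of all genes compared. Their median log2 ratio there was −2.59, with a range of −2.93 to −1.65. In the HDAC6 comparison the median was −0.31, and 0 of 9 were at 2-fold, against 1.44% of all genes. In R-U87MG against U87MG it was 0.94, and 3 of 9 were at least 2-fold higher under TMM, against 11.2% of all genes. Library totals shifted the ratios of that comparison by 0.26, so the count at 2-fold depends on the scaling. The part of the division markers in the tubulin ratios was not tested. Other markers also differed in the LINC00461 pair: VIM had 6327 CPM in U87MG si-NC and 3170 in U87MG si-LINC00461, whereas CD44 had 1604 and 1728. Of the neuronal markers, SNAP25 had 53.7 and 116 CPM and SYP 1.10 and 7.03. MAP2 went the other way with 24.1 and 10.6, as did NEFM with 6.04 and 4.05. SYN1 had at most 12 counts in any library, and RBFOX3, NEFL and ELAVL4 had at most 3. The 8 neuronal markers together had 74.1 to 138 CPM over the 4 libraries. Their part in the ratios of TUBB3 and the other tubulin genes was not tested.

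The third comparison was between the si-NC libraries of R-U87MG and U87MG. It shares its libraries with the other comparisons, and the cell line and any difference in culture or sequencing run cannot be told apart. Of the 8 tubulin genes 1 was at least 2-fold lower in R-U87MG, against 15.0% of the 13349 genes compared, and 0 were at least 2-fold higher, against 11.2%. In either direction 26.2% of all genes were called.

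TUBA1A was the gene at 2-fold, with a log2 ratio of −1.22 (95% interval −1.27 to −1.16), or 2.33-fold lower in R-U87MG. TUBB2A and TUBA4A were lower by less, at −0.87 (−1.03 to −0.72) and −0.85 (−0.90 to −0.81), and TUBB6 was at −0.50. TUBA1C was higher in R-U87MG at 0.80 (0.75 to 0.84), and TUBA1B at 0.36 (0.34 to 0.39). TUBB3 (−0.03) and TUBB4B (0.04) were close to 0.

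The α-tubulin genes therefore went in opposite directions between the cell lines, with TUBA1B and TUBA1C higher and TUBA1A and TUBA4A lower in R-U87MG, while the summed α-tubulin counts had a log2 ratio of 0.08 and the summed β-tubulin counts one of −0.22. With library totals in place of TMM the ratios of this comparison were 0.26 higher, which brought TUBA1A to −0.95 and TUBA1C to 1.06 and so moved both across 2-fold. Under that scaling the median of all genes was 0.28, against 0.02 under TMM. The opposite directions of the 2 pairs of α-tubulin genes held under each scaling tried.

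**Figure D3:**
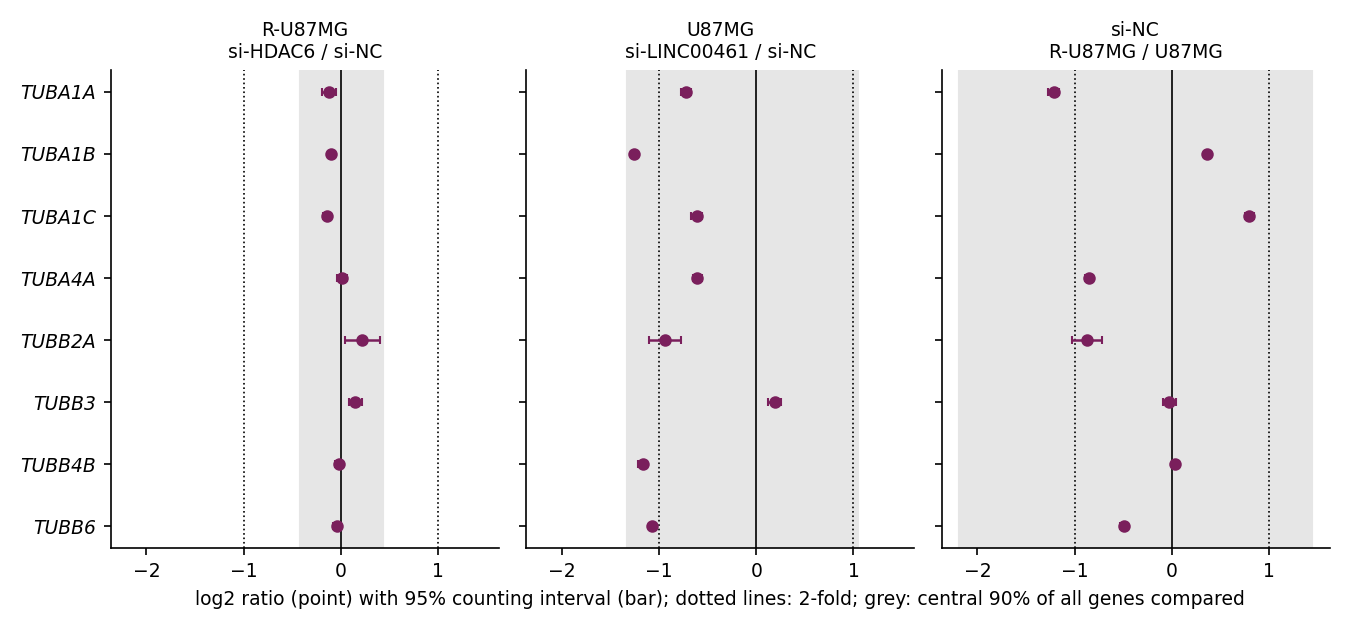
Log2 ratios of the 8 tubulin genes with counts in the 3 comparisons (points), with 95% counting intervals (bars). Dotted lines mark 2-fold and the grey band the central 90% of all genes compared, which was widest in the comparison of the cell lines. No tubulin gene was beyond 2-fold with si-HDAC6, and TUBA1B, TUBB4B and TUBB6 were with si-LINC00461.

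ATAT1 (ENSG00000137343; chromosome 6, 30626842 to 30646823) and TUBB (ENSG00000196230; chromosome 6, 30720201 to 30725426), the gene of a ubiquitous β-tubulin, were listed at 0 in all 4 libraries. They lie close to each other. Of the 31 other protein-coding genes within 500 kb of TUBB, 24 (77.4%) were listed at 0 in all 4 libraries, and of the 33 within 500 kb of ATAT1, 27 (81.8%) were. Over all 19790 protein-coding genes the share was 16.3%, and around the 8 tubulin genes with counts it was 0% to 20.3%.

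The neighbors listed at 0 included genes that nearly every cell uses: ABCF1, a translation factor, MRPS18B, a mitochondrial ribosomal protein, GTF2H4, a subunit of transcription factor TFIIH, and PPP1R10 and FLOT1. For ATAT1 and TUBB it can therefore be said only that they were listed at 0, and neither a level nor a ratio is given. The cause was not tested.

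A similar gap surrounded SIRT2 (chromosome 19, 38878555 to 38899862), the other α-tubulin deacetylase, which had 1, 1, 0 and 0 counts. Of its 36 protein-coding neighbors 22 (61.1%) had at most 3 counts in every library, against 28.6% of all protein-coding genes. The 22 included EIF3K and ACTN4, and HNRNPL, another neighbor, had at most 4 counts. These genes are expressed in nearly all cells. HDAC6 was thus the enzyme of the acetylation cycle with usable counts. It had a log2 ratio of −0.08 (−0.25 to 0.09) with si-LINC00461 and of −1.13 (−1.33 to −0.93) in R-U87MG against U87MG.

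**Figure D4:**
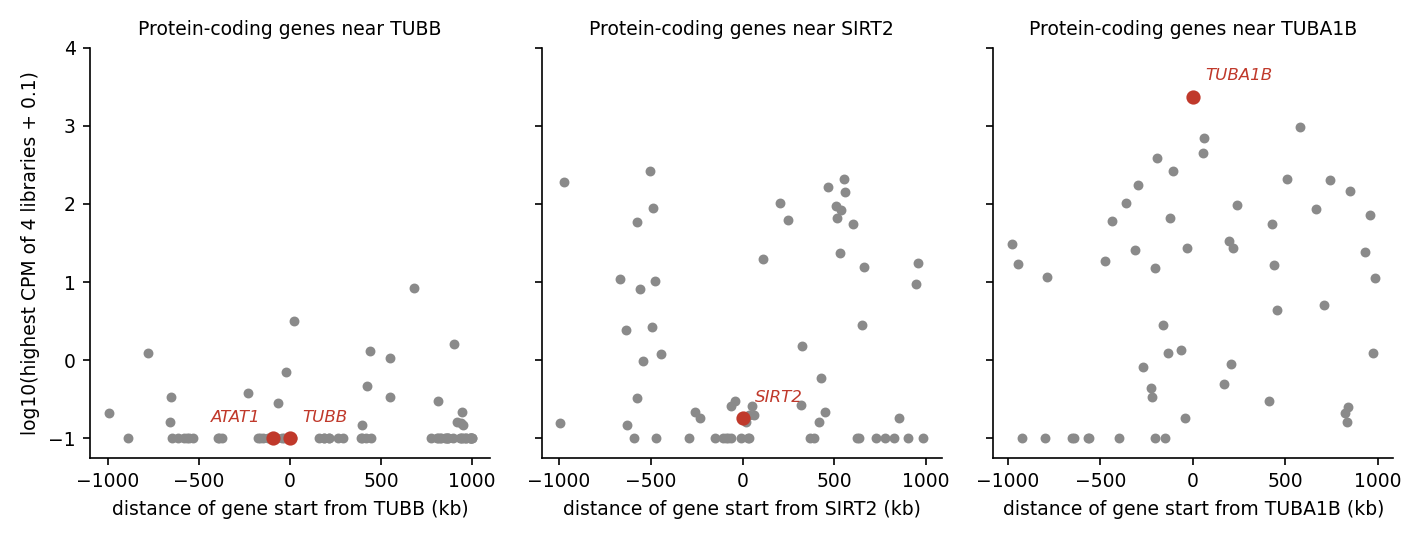
Highest CPM of the 4 libraries, as log10(CPM + 0.1), of protein-coding genes within 1000 kb of the start of TUBB, SIRT2 and TUBA1B, against the distance in kb; −1 means listed at 0 in all 4 libraries. Most genes around TUBB and ATAT1 sat at that line, as did or nearly did those next to SIRT2, and most genes around TUBA1B did not.

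Near-identical sequence limits how fragments can be given to single tubulin genes. Of the 50-base stretches in the annotated transcripts, 22.1% of those of TUBA1A, 25.6% of TUBA1B and 15.6% of TUBA1C also occurred in transcripts of another gene, mostly within this trio, and within the coding sequence it was 58.5%, 75.7% and 57.1%. TUBA4A shared 2.64% of its stretches and TUBB6 0.446%. TUBB4B shared 7.45%. The values of TUBA4A, TUBB4B and TUBB6 are therefore the least exposed to the division of fragments between copies.

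TUBB2A shared 58.7% of its stretches, most of them with TUBB2B, which had 83, 66, 67 and 29 counts in R-U87MG si-NC, R-U87MG si-HDAC6, U87MG si-NC and U87MG si-LINC00461. TUBB3 shared 95.8% of its coding stretches with the overlapping readthrough gene AC092143.1, which had 12 to 26 counts. The fragment numbers of TUBB3 lay 0.0311 to 0.282 from a whole number, beyond 0.02 plus the rounding of the deposited value in all 4 libraries, and those of the other 7 genes did not lie beyond it. TUBA1A and TUBA1C overlap on opposite strands, as do TUBB6 and AFG3L2, and TUBA4A and STK16. STK16 had 305 to 369 counts. Whether the counting used strand is not given in the sources used here.

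The processed pseudogene TUBBP1, on chromosome 8, had 1984, 1320, 1464 and 870 counts in the same order of libraries. Of its 50-base stretches 26.4% also occur in TUBB, which is listed at 0. Whether fragments of TUBB were counted there was not tested. TUBAP2, which shares 22.5% of its stretches with TUBA1B, had 227, 115, 80 and 27 counts. Of 38 tubulin pseudogenes in the files, 11 had a count and 2 had at least 10 counts in a library.

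Of 13 other tubulin genes 6 passed the same filter in each comparison. TUBG1, which encodes the γ-tubulin that nucleates microtubules, had log2 ratios of 0.10 with si-HDAC6, −0.29 with si-LINC00461 and 0.11 in R-U87MG against U87MG. With si-LINC00461 TUBB2B was at −1.01 (−1.70 to −0.37) on 29 and 67 counts, the 1 gene of this list at 2-fold, whereas TUBE1, the ε-tubulin of centrioles, was higher at 0.78 (0.55 to 1.02). Of all genes compared in that pair, 8.17% were at least 2-fold lower.

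The enzymes of the terminal tyrosine had 3 of 4 genes compared. TTL had 4853 counts in R-U87MG si-NC, 3110 in R-U87MG si-HDAC6, 2863 in U87MG si-NC and 3612 in U87MG si-LINC00461, with log2 ratios of −0.25 (HDAC6 comparison), 0.52 (LINC00461 comparison) and 0.76 (R-U87MG against U87MG). VASH1 was at −0.09, 0.32 and −1.56 in the same order, and 15.0% of all genes were at least 2-fold lower in the last comparison. SVBP was at least 2-fold higher with si-LINC00461, at 1.30 (0.70 to 1.94) on 74 and 34 counts, as were 5.42% of all genes. With si-LINC00461 all 3 compared genes had log2 ratios above 0. Of the 8 tubulin genes 7 had ratios below 0, as had 50.2% of all genes compared. VASH2, which did not pass the filter, was lower, on 1 count with si-LINC00461 and 6 with si-NC.

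Among the glutamylases, glycylases and deglutamylases, which add or remove side chains on the tubulin tails, 10, 9 and 9 of 19 genes were compared in the HDAC6, LINC00461 and cell-line comparisons, and 0, 0 and 2 were at least 2-fold lower. The 2 were TTLL3, a glycylase, at −2.10 and AGTPBP1, a deglutamylase, at −1.49, both lower in R-U87MG than in U87MG. Over all genes compared, 0.747%, 8.17% and 15.0% were at least 2-fold lower in the same order of comparisons.

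Genes of tubulin mRNA autoregulation were compared in full (11 of 11). TTC5 had 340 counts in R-U87MG si-NC, 177 in R-U87MG si-HDAC6, 124 in U87MG si-NC and 36 in U87MG si-LINC00461. Its log2 ratio was −0.55 (−0.82 to −0.28) with si-HDAC6, −1.58 (−2.17 to −1.05) with si-LINC00461 and 1.46 (1.16 to 1.77) in R-U87MG against U87MG. SCAPER had 186, 115, 366 and 206 counts and log2 ratios of −0.30, −0.64 and −0.97. The list median was −0.07, −0.17 and −0.07, and CNOT8, a catalytic deadenylase subunit, was at −1.63 in R-U87MG against U87MG. With si-HDAC6 0 of 11 were at 2-fold, against 1.44% of all genes. With si-LINC00461 1 of 11 was at least 2-fold lower, against 8.17%, and 0 were higher, against 5.42%. In R-U87MG against U87MG 1 was lower and 1 higher, against 15.0% and 11.2% of all genes.

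Of the genes that fold tubulin, all 8 subunits of the cytosolic chaperonin CCT were compared, with median log2 ratios of −0.07 with si-HDAC6, −0.20 with si-LINC00461 and 0.93 in R-U87MG against U87MG. In the last, CCT5 (1.04) and CCT6A (1.28) were at least 2-fold higher, against 11.2% of all genes, and all 8 lay between 0.79 and 1.28. These values are under TMM. Library totals shifted the ratios of that comparison by 0.26 and upper-quartile scaling by −0.04, so the count of CCT genes at 2-fold depends on the scaling. Prefoldin, which passes tubulin to CCT, had medians of 0.03, −0.14 and −0.07 over 5 of 6 genes, and PFDN6 was listed at 0. The folding cofactors had medians of 0.03, 0.31 and −0.13 over 6 of 7 genes. No gene of the prefoldin and cofactor lists was at 2-fold in any of the 3 comparisons, in which 1.44%, 13.6% and 26.2% of all genes were.

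In the γ-tubulin ring complex, the template from which microtubules grow, 11 of 11 genes were compared and MZT1 was the 1 gene at 2-fold, at −1.94 (−2.16 to −1.73) with si-LINC00461. In that pair 8.17% of all genes were at least 2-fold lower. The lowest gene with si-HDAC6 was TUBGCP5, at −0.82 (−1.30 to −0.37) on 57 and 133 counts. Of the microtubule-binding and destabilizing proteins, STMN1, which binds tubulin dimers, was at −1.50 (−1.63 to −1.38) and MAP2, a neuronal microtubule-binding protein, at −1.17 with si-LINC00461. MAP7 was at 1.77 (1.03 to 2.63) on 58 and 19 counts. These were the 2 lower and 1 higher of 14 compared, against 8.17% and 5.42% of all genes. In R-U87MG against U87MG, MAP6 (−1.39) and MAPRE2 (−1.24) were at least 2-fold lower, which is 2 of 13. That is near the 15.0% of all genes. With si-HDAC6 none of the 13 compared was at 2-fold, against 1.44% of all genes.

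**Figure D5:**
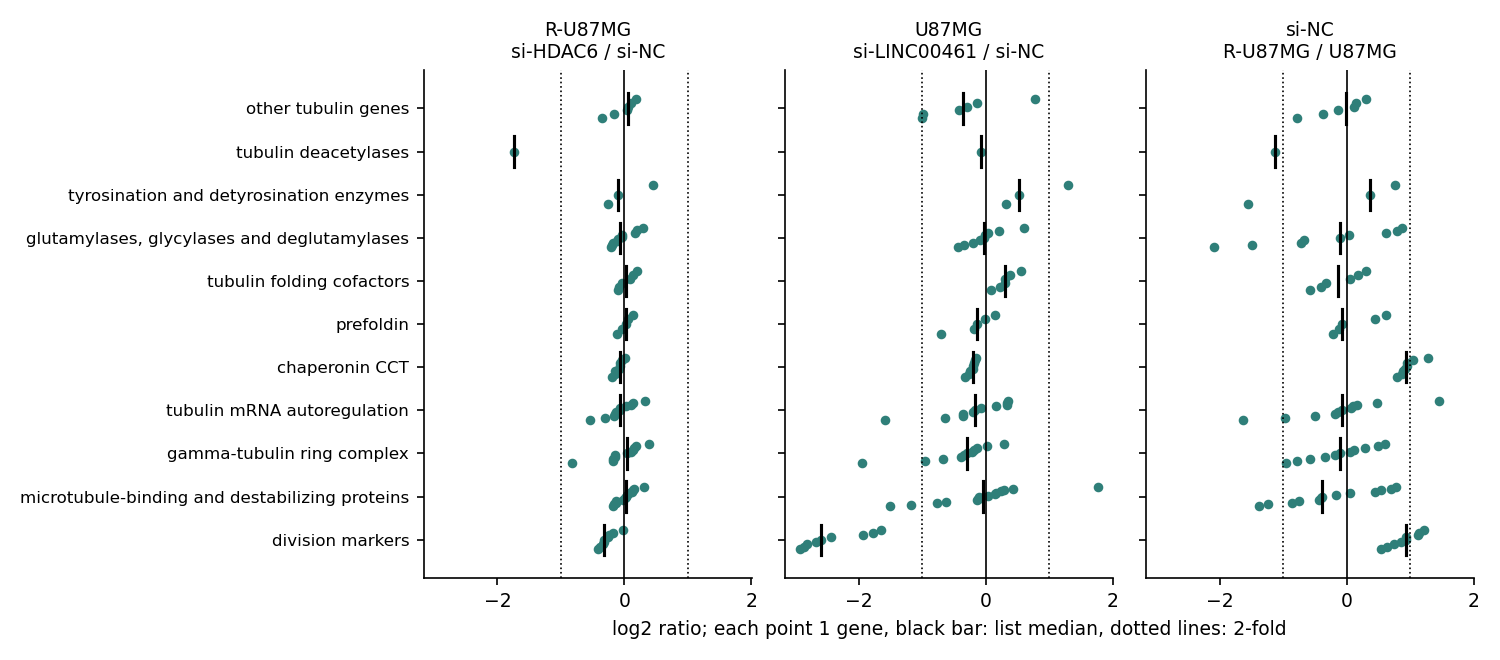
Log2 ratios of the genes that passed the filter on low counts in 11 lists (points), with list medians (black bars) and 2-fold (dotted lines), in the 3 comparisons. The division markers were lowest with si-LINC00461, at a median of −2.59, and the chaperonin CCT was higher in R-U87MG than in U87MG, at a median of 0.93. HDAC6 is the single gene of the deacetylase list with usable counts.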

How the data were processed

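RNA-seq of 4 libraries, 1 per condition, was performed for the authors by Welgene Biotech with a strand-specific kit. The submitters' processing notes name bcl2fastq, Trimmomatic 0.36, HISAT2 and GRCh38.p13. The counting program and its annotation are not given in the sources used here. The authors deposited estimated counts for Ensembl genes, which they had multiplied by a factor, 1 for each library. Here each value was divided by its factor and rounded to a whole number, and 93.4% to 94.1% of the values above 0 lay within 0.02 of one. How fragments shared by near-identical genes were divided is already in the values.

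Symbols, positions, lengths and transcript sequences were taken from GENCODE 29, which held 57888 of the 58226 IDs. Libraries of a comparison were normalized with TMM (edgeR 4.0.16, R 4.3.3). Log2 ratios were taken of counts plus 0.5, which understates the change of low genes. Genes entered a comparison when their CPM averaged 1 or more and were called at 2-fold. All 8 tubulin genes with counts passed this filter. The factors of DESeq2 1.42.0, used as an alternative, were taken over genes with at least 10 counts in both libraries. In simulated data with 200 changed genes, 200 had the right sign in each comparison, and the intervals held the true value for 95.0% to 96.0%. The simulated counts were Poisson draws, and the changes were at least 2-fold, equally up and down. They held no variation between cultures and no fragments shared by near-identical genes. The simulation therefore checked the calculation only and cannot speak to those sources of error.

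The members, gene lists and rules were chosen with earlier results of these data known. All 10 members, HDAC6, SIRT2, TTL, TTC5 and SCAPER are named, and from each list the 2 highest and the 2 lowest ratios of each comparison could be named. LINC00461, TUBG1 in the LINC00461 and cell-line comparisons, the ubiquitous neighbors of TUBB, ATAT1 and SIRT2, the overlapping genes and the pseudogenes were named after their values were seen. The last codons of the other 2 tubulin genes are not reported here. Protein sequences were not used here, so identities are of coding sequence. Scripts ran in Python 3.11.15 (scipy 1.17.1, pandas 2.3.3, numpy 2.4.6), and matplotlib 3.10.9 drew the figures.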

Additional observations from a re-analysis of the deposited data

How the results depend on the processing

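In the HDAC6 and LINC00461 comparisons the 8 tubulin genes kept their sign and their side of 2-fold under library totals, DESeq2 size factors, upper-quartile scaling, the authors' scaling, pseudocounts of 0.1 and 5 and libraries thinned to the smallest total, and the largest shift was 0.04. In the comparison of the cell lines, library totals moved the median of the 8 from −0.26 to 0.0014 and changed the sign of 1, as did upper-quartile and the authors' scaling. The authors' scaling left totals of 14462288 and 14492368 in the R-U87MG pair and of 18810739 and 18926352 in the U87MG pair. It thus did not bring the cell lines to a common total. At a threshold of 1.5-fold, 7 tubulin genes were called with si-LINC00461 and 4 between the cell lines. Over all genes that threshold called 330 lower and 352 higher with si-HDAC6, 2222 and 1871 with si-LINC00461, and 3346 and 3077 between the cell lines. With no filter on low counts and 2-fold, the same counts were 3050 and 2465, 4243 and 3799, and 5793 and 4772. No paired analysis was possible because each condition is 1 library. The ratios of α- to β-tubulin sums became 1.86, 1.75, 1.51 and 1.45 over the longest coding transcripts and 2.65, 2.49, 2.01 and 1.84 over their median, in the order R-U87MG si-NC, R-U87MG si-HDAC6, U87MG si-NC and U87MG si-LINC00461.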
